A study of Mus musculus with 9 samples.

Results

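Small non-coding RNA genes, 195 of the 19305 genes in 2 deposited tables, were followed in mouse Lewis lung carcinoma (LLC1) cells kept with T cells of 3 kinds. They are the genes whose Ensembl biotype is snoRNA, scaRNA, snRNA or misc_RNA (other structured RNAs) and whose mean over the 6 libraries of a table was at least 10. The table of the Th0 and Th9 libraries held 181 of them among 18816 genes, namely 112 of 201 listed snoRNAs, 14 of 19 scaRNAs, 22 of 117 snRNAs and 33 of 89 misc_RNAs. The table of the Th0 and Th17 libraries held 191 among 18511 genes, namely 118 of 200 snoRNAs, 14 of 19 scaRNAs, 28 of 133 snRNAs and 31 of 87 misc_RNAs, and 177 genes met the rule in both. The members were selected on their mean over all 6 libraries, so their level is a description. The differences between groups were not used to choose them, although 20 and 22 members had a mean under 10 in 1 of the compared groups.

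LLC1, an established lung cancer line of the mouse, shared direct-contact cultures for 24 h with CD4 T cells generated as Th0, Th9 or Th17, at equal numbers of both cells. T cells were then removed by sorting on CD4, and total RNA of what remained was sequenced, 3 libraries per group. There were no LLC1 cells without T cells, so Th0 cultures are the control. Each deposited value is a gene's read count after the authors' normalization, rounded to a whole number and called the normalized value here. The 3 Th0 libraries stand in both tables with values that differ by a factor of 1.02 to 1.03, and both comparisons therefore share their controls. The labels do not say whether libraries of a group were separate cultures, and p-values then rest on how far these libraries scatter, which may be technical.

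C/D box snoRNAs guide 2′-O-methylation and H/ACA box snoRNAs guide pseudouridylation, mostly of ribosomal RNA in the nucleolus, and most in mammals are cut out of introns of host genes. The scaRNAs do the same for spliceosomal snRNAs in Cajal bodies, and the snRNAs form the cores of the spliceosome. Among the other structured RNAs are the Y RNAs, which bind the Ro60 and La proteins, 7SK, which holds the transcription elongation factor P-TEFb inactive, 7SL of the signal recognition particle, the telomerase RNA and the vault RNA. Mouse genomes also carry many degenerate copies of 7SK, U6 and other small RNAs, and counts for near-identical copies are uncertain because reads can be split between them.

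Sequences are shown for the members on which the results turn. All 195 members matched GENCODE M21 transcripts with identical GRCm38 coordinates, and the sequences are from that annotation. The first 2 are annotated genes resembling 7SK, shown because they fell in both comparisons. Gm26035 lies at chrX:152923453-152923760 and Gm23624 at chr9:120791465-120791785, both on the minus strand. Capitals mark runs of at least 12 bases that also occur in Rn7sk, the mouse 7SK gene, and cover 205 of 308 and 126 of 321 bases. The first 240 bases of each are printed.
Gm26035: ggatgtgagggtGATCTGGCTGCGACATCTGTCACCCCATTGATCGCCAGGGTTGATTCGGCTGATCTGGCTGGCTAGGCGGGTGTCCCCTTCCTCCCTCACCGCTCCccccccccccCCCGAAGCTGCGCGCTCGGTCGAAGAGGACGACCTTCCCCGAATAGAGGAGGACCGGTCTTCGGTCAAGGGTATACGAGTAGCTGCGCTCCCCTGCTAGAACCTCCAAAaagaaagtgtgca
Gm23624: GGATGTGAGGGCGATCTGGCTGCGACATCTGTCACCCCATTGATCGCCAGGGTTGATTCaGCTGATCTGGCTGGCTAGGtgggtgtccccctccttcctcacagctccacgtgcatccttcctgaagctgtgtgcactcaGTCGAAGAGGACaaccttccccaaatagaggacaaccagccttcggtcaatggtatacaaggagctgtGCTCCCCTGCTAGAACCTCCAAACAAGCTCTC

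The next 4 are C/D box snoRNAs, 3 of which sit in introns of one host gene, Rpl13a, on the minus strand of chromosome 7. They are Snord32a (chr7:45127382-45127464), Snord34 (chr7:45126601-45126670) and Snord35a (chr7:45126346-45126435). Snord87 lies in an intron of Snhg6 (chr1:9942463-9942549, minus strand). Capitals mark TGATG, the core of the C box, and CTGA, the D box.
Snord32a: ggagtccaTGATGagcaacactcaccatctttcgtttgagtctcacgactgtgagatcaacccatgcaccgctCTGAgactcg
Snord34: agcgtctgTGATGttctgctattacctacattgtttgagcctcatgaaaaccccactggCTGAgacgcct
Snord35a: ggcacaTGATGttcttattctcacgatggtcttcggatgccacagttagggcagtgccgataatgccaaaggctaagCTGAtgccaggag
Snord87: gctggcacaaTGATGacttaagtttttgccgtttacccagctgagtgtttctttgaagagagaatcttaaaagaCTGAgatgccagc
These letters, searched on the RNA strand in the first and last 25 bases, were found in 57 of the 119 snoRNA members (47.9%) and in 361 of all 1507 annotated mouse snoRNAs (24.0%). A further 46 members (38.7%, against 42.8% of all) held ACA near the 3′ end, the mark of the H/ACA class, and the search gave C/D letters precedence.

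Scarna13 (chr12:105031075-105031349, minus strand) was the most abundant scaRNA, with its ACA in capitals. Rny3 (chr6:47781624-47781725, plus strand) and Rny1 (chr6:47788069-47788180, minus strand) are the Y RNAs, with shared runs of at least 7 bases in capitals.
Scarna13: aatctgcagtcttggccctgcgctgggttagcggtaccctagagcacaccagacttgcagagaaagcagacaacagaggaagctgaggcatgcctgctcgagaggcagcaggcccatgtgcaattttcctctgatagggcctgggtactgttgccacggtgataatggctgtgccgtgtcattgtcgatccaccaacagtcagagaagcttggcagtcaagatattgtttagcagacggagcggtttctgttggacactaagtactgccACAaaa
Rny3: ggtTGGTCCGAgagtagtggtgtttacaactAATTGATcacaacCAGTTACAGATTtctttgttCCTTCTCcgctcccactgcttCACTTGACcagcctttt
Rny1: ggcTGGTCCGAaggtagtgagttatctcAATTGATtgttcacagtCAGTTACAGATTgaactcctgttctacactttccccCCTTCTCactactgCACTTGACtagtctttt
In the best local alignment, 81 of the 112 bases of Rny1 were identical in Rny3. Gm22513 (chr12:54696782-54696945, plus strand), the most abundant snRNA member, is 99.4% identical to the U1 gene Rnu1a1, and capitals mark the letters with which U1 pairs with the start of an intron.
Gm22513: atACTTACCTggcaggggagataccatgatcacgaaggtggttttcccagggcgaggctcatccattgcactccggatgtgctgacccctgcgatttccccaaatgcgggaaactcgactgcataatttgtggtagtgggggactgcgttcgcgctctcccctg
ACTTACCT stood in 2 of the 28 snRNA members and in 60 of all 1383 annotated mouse snRNAs, searched on the RNA strand.

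One Th0 library stood apart, and most members read higher in it than in the other Th0 libraries. In Th0 replicate 1, 156 of 181 members (86.2%) lay above both other Th0 libraries, against 36.6% of all 14475 genes with a mean of at least 10. The median member stood 1.29 higher than in the other Th0 libraries on the log2(value + 1) scale (2.45-fold), and the median gene 0.03 lower, a difference of -0.03. The excess was 2.92-fold for the median snoRNA, 1.92-fold for the median scaRNA, 1.85-fold for the median snRNA and 1.30-fold for the median misc_RNA. The members took 0.304% of all normalized values in that library and 0.146% and 0.144% in Th0 replicates 2 and 3.

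The excess differed by length and by class, and these went together. The 36 members of at most 80 bases stood 1.93 higher in the median (log2 scale), the 35 of 81 to 119 bases 1.27 higher, the 65 of 121 to 156 bases 1.38 higher, the 12 of 161 to 246 bases 1.397 higher and the 33 of 251 to 423 bases 0.39 higher. Of those 33, 27 were misc_RNAs, and 35 of the 36 shortest were snoRNAs. Within classes there was no common order by length: the median was 1.95, 1.61, 1.43 and 1.59 in the snoRNAs of the first 4 bands (35, 22, 50 and 4 genes). Among scaRNAs it was 0.48 for the 8 of 121 to 144 bases and 1.11 for the 5 of 251 to 414 bases, and among snRNAs 0.64 for the 10 of 81 to 116 bases and 1.46 for the 6 of 121 to 151 bases. A smaller swing of the opposite sign was seen in Th9 replicate 3 against the other Th9 libraries, with medians of -0.81 for the shortest and 0.10 for the longest of these bands. Across the 181 members, length and the Th0 replicate 1 excess had a Spearman rho of -0.45, as a description of genes that share their libraries. The mitochondrial ribosomal RNA mt-Rnr1 moved alike, at 988912, 383043 and 298222 in Th0, and 417622, 434594 and 299463 in Th9. The other, mt-Rnr2, was also highest in Th0 replicate 1 (2093274, 1157410 and 908782). It was not lowest in Th9 replicate 3 (1149815, 1081751 and 1099210 in Th9). Together with Gm26917, both made up 31.1%, 16.6% and 14.9% of the Th0 libraries and 16.1% to 18.6% of the Th9 libraries. The same 3 genes made up 20.7% to 21.8% of the Th17 libraries. The part of library preparation in these values was not tested. Class sums, total counts of calls and the members that turn on Th0 replicate 1 are given with and without it below.

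**Figure D1:**
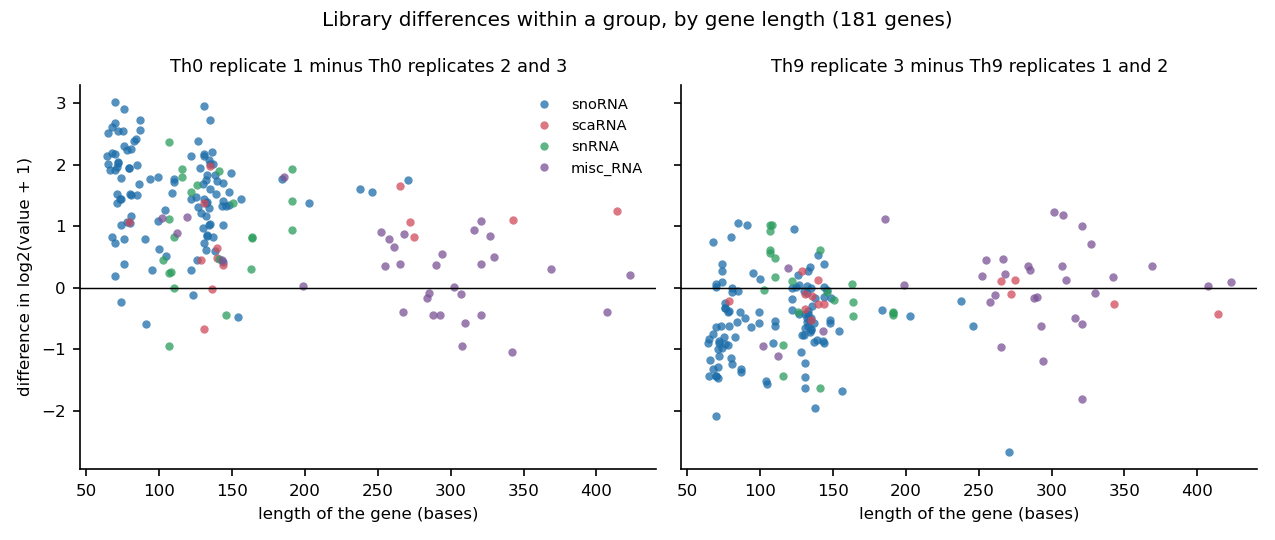
Each point is one of 181 small RNA genes of the table with Th9, placed by its length in bases (x axis) and by the difference in log2(value + 1) between one library and the mean of the other libraries of its group (y axis). In Th0 replicate 1 (left) the shortest genes, mostly snoRNAs, sit highest, and in Th9 replicate 3 (right) they sit lowest.

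Markers of other cells were present at low levels. Summed over a list of 18 T cell markers, Th0 libraries reached 94 to 199 and Th9 libraries 1484 to 2128, with Trbc1 at 0 in all 3 Th0 libraries. The table with Th17 listed 11 of the 18 (without Cd2, Cd3d, Cd3e, Il2ra, Trac, Trbc1 and Trbc2), which summed to 91 to 185 in Th0 and 61 to 90 in Th17. The 6 LLC1 genes of the marker list summed to 92271 to 124454 in Th0 and 101175 to 106266 in Th9, and to 119978 to 121179 in Th17. B cell markers (6) summed to 81 to 287 in Th0, 84 to 99 in Th9 and 12 to 18 in Th17, and 3 listed myeloid markers to 51 to 105, 77 to 89 and 67 to 76. The part of these cells in the differences below was not tested, and fewer cells of a kind cannot be told apart from less RNA per cell in bulk libraries.

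By class, the summed level of scaRNAs was lower in every Th9 library than in every Th0 library, and that of misc_RNAs was higher in every Th17 library than in every Th0 library. The 14 scaRNAs summed to 9503, 4927 and 5142 in Th0 and to 3562, 4067 and 3604 in Th9, a log2 difference of -0.74 (SE 0.31), or 1.66-fold lower. Without Th0 replicate 1 the groups still did not overlap and the log2 difference was -0.43, or 1.35-fold lower. The separation rested on Scarna13: the other 13 scaRNAs summed to 4728, 2241 and 2426 in Th0 and to 2182, 2376 and 1931 in Th9, which overlapped (log2 difference -0.45, exact permutation p = 0.2). For all 14, an exact two-sided permutation test gave p = 0.1, the smallest that 3 against 3 libraries allow, and 0.32 after adjustment over the 8 class tests. In the table with Th17 the scaRNA sums were 9788, 5025 and 5276 against 5264, 4769 and 4485, so the groups overlapped, with a log2 difference of -0.40 (exact permutation p = 0.2, adjusted 0.32) that was -0.09 without Th0 replicate 1.

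Rny3 was the largest single part of the misc_RNA sum. The 33 misc_RNAs summed to 6064, 3870 and 3026 in Th0 and to 6681, 7064 and 3922 in Th9, with Th9 replicate 3 inside the Th0 range (log2 difference 0.46, SE 0.40, exact permutation p = 0.2). In the table with Th17, 31 summed to 6218, 3935 and 3086 in Th0 and to 8044, 6771 and 7708 in Th17. The latter difference was 0.83 (SE 0.31, 1.77-fold) on the log2 scale, at the smallest exact permutation p of 0.1 (adjusted 0.32). Without Rny3 the log2 differences were 0.02 (Th9) and 0.26 (Th17), and with Rny3 but without Th0 replicate 1 they were 0.74 and 1.10.

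The snoRNA sums followed Th0 replicate 1. They were 26153, 9302 and 8732 in Th0 against 12857, 13695 and 8896 in Th9, and 27003, 9538 and 9006 against 16545, 14381 and 15621 in Th17. The Th17 libraries and Th9 replicates 1 and 2 lay between Th0 replicate 1 and the other Th0 libraries, and Th9 replicate 3 lay between Th0 replicates 2 and 3. The log2 difference was -0.15 (SE 0.55, exact permutation p = 0.9) for Th9 and turned to 0.37 (1.29-fold higher) without Th0 replicate 1. For Th17 it was 0.23 (SE 0.52, p = 0.8 by the exact permutation test), and 0.74 (1.67-fold higher) without that library. The snRNA sums were 5397, 2414 and 2632 against 2221, 2464 and 1938 in Th9, and 5666, 2505 and 2765 against 2537, 2431 and 2603 in Th17. The snRNA groups overlapped in both tables, with log2 differences of -0.56 and -0.43 that were -0.20 and -0.06 without Th0 replicate 1.

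**Figure D2:**
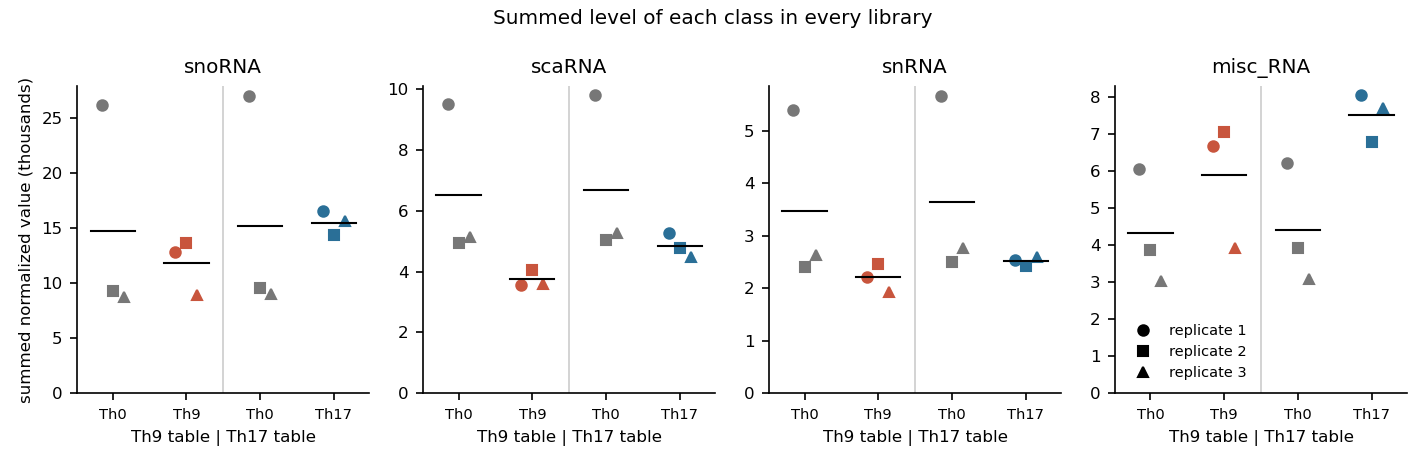
Summed normalized value (y axis) of each class in every library, with Th0 and Th9 of one table left of the grey line and Th0 and Th17 of the other right of it. Symbols mark the replicates and bars the group means, and Th0 replicate 1 is the highest Th0 library in each panel.

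Gene by gene, 3 members rose and 11 fell with Th9, at a Benjamini-Hochberg adjusted p under 0.05 over all 14475 genes tested with limma-trend. Of all tested genes 25.2% were called, 13.4% higher and 11.9% lower, and of the members 1.66% rose and 6.08% fell. Among those that rose were the misc_RNA Gm27782 and the snRNA Gm22005. Those that fell were 3 misc_RNAs (Gm23624, Gm26035, Gm23833), 4 scaRNAs (Gm23119, Scarna13, Gm25492, Scarna17), 3 snoRNAs (Snord89, Snord35a, Gm27326) and Rnu12. The median log2 fold change was -0.21 over the members and -0.01 over all genes. When Th0 replicate 1 was left out, 39 members rose and 13 fell, 33 of the 39 being snoRNAs, the median member stood at 0.17, and 17.8% of all genes rose and 19% fell.

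With Th17, 2 members rose, Rny3 among them, and Gm23624 and Gm26035 fell, 4 of 191 members, by the same limma-trend test over 14342 genes. Of all tested genes, 1.58% were called, 1.19% higher and 0.39% lower, against 1.05% of the members in each direction. On the log2 scale the median member stood at 0.09 and the median gene at -0.005. When Th0 replicate 1 was left out, 62 members rose (53 of them snoRNAs) and 6 fell, and 6.71% and 9.52% of all genes did. The median member then stood at 0.48.

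The count of members whose groups did not overlap turned in the same way. In Th9, 4 members lay above and 21 below all Th0 libraries, against 21.4% and 19.2% of all genes. Without Th0 replicate 1 these were 44 and 23, against 27.5% and 29.7%. In Th17, 8 lay above and 13 below, against 12.8% and 10.6% of all genes. Without Th0 replicate 1 they were 97 and 16, against 20.3% and 23.9%.

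**Figure D3:**
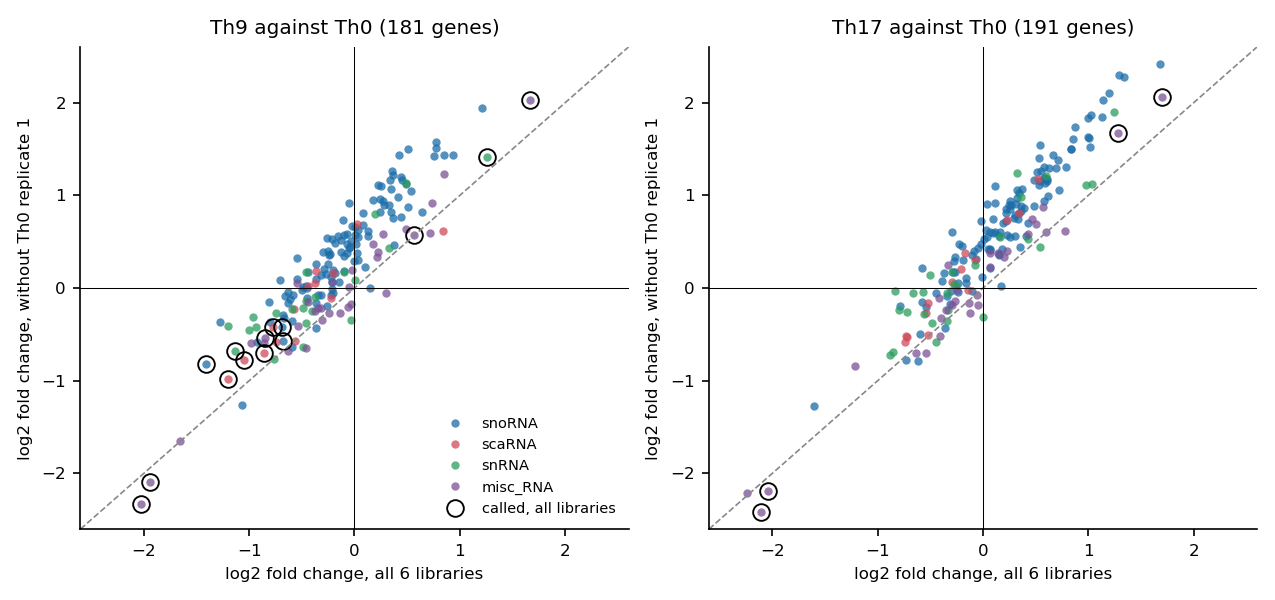
Log2 fold change of each small RNA gene against Th0 with all 6 libraries (x axis) and without Th0 replicate 1 (y axis), for Th9 (181 genes, left) and Th17 (191 genes, right); circles mark genes called with all libraries. Nearly all snoRNAs lie above the dashed line of equality, and Gm26035 and Gm23624, at the lower left, lie near it.

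Among the snoRNAs, the 4 with the highest level were Gm23455, Snord15a, Snord82 and Gm24339, and none of these passed the test in either comparison with all libraries. Gm23455, inside Taf1d, read 1992, 1356 and 1209 in Th0 and 1275, 1315 and 1436 in Th9, so that its groups overlapped. In the other table it read 2049, 1385 and 1240 against 1283, 1432 and 1380 in Th17. Snord82, in an intron of the nucleolin gene Ncl, read 1496, 453 and 344 in Th0 and 587, 726 and 421 in Th9. The Th17 libraries read 848, 647 and 716, above Th0 replicates 2 and 3 (463 and 353) and below replicate 1 (1538). When Th0 replicate 1 was left out, Snord82 and Gm24339 passed with Th9 (0.51 and 0.30 on the log2 scale) and Snord15a, Snord82 and Gm24339 with Th17 (0.53, 0.86 and 0.70), at adjusted p of at most 0.028.

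Snord34, Snord32a and Snord35a guide methylation from neighbouring introns of Rpl13a, a ribosomal protein gene, and differed in their readings. Snord34, chosen after its values were seen, read 629, 80 and 73 in Th0 and 274, 308 and 107 in Th9. For the Th17 comparison it read 647, 81 and 75 in Th0 and 447, 347 and 378 in Th17. Every Th9 and Th17 library thus lay above Th0 replicates 2 and 3 and below replicate 1. With Th9 its log2 fold change was 0.43 (SE 0.65) and with Th17 1.29 (SE 0.63), at adjusted p of 0.67 and 0.31, and without Th0 replicate 1 it was 1.44 (adjusted p = 7.28e-04) and 2.30 (adjusted p = 4.15e-07).

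Snord35a, 90 bases long, fell with Th9 and went the other way from Snord34 once Th0 replicate 1 was left out. It read 807, 430 and 503 in Th0 and 381, 394 and 277 in Th9, with no overlap (log2 fold change -0.69, SE 0.20, adjusted p = 0.025, and -0.42, adjusted p = 0.014, without Th0 replicate 1). Without Th9 replicate 3 its adjusted p was 0.12. In Th17 it read 512, 481 and 546 against 830, 439 and 516, and the groups overlapped. Snord32a, also chosen after its values were seen, read 476, 98 and 82 in Th0 and 151, 165 and 90 in Th9 (log2 fold change -0.26, adjusted p = 0.75, and 0.54, adjusted p = 0.046, without Th0 replicate 1). Rpl13a itself read 469, 467 and 370 in Th0 and 669, 702 and 569 in Th9, a rise of 0.57 (SE 0.12, adjusted p = 0.0037) that was 0.63 without Th0 replicate 1.

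Snord87, in Snhg6, and Snord104, both C/D box genes chosen after their values were seen, were also far higher in Th0 replicate 1 than in the other Th0 libraries. Snord87 read 1063, 179 and 141 in Th0, 523, 530 and 203 in Th9 and, in the other table, 1094, 183 and 144 in Th0 and 856, 623 and 650 in Th17. Snord104 read 729, 135 and 95 in Th0 and 344, 343 and 127 in Th9, and 750, 138 and 97 in Th0 against 540, 422 and 475 in Th17. Without Th0 replicate 1 the log2 fold changes with Th17 were 2.11 and 2.03 (adjusted p = 1.62e-06 and 2.71e-06), and with all libraries 1.19 and 1.14 (adjusted p = 0.30 and 0.32). The H/ACA box gene Snora21, in Rpl23, likewise chosen, read 907, 223 and 224 in Th0 and 690, 509 and 571 in Th17 (log2 fold change 0.71, adjusted p = 0.41, and 1.385 without Th0 replicate 1). In each of these genes the Th17 libraries lay between Th0 replicate 1 and the other 2.

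By class of box, the C/D genes carried most of the calls that appeared without Th0 replicate 1. Of 54 C/D members of the table with Th9, 22 then rose and 3 fell (median log2 fold change 0.50), and of 42 with ACA 11 rose and none fell (median 0.41). Of 57 and 45 such members with Th17, 37 and 16 rose and 1 and 0 fell, with medians of 0.90 and 0.60. Of all genes, 17.8% then rose and 19% fell with Th9, and 6.71% rose and 9.52% fell with Th17. The medians with all libraries were -0.07 and -0.10 (Th9), and 0.36 and 0.26 (Th17). The C/D genes were the shorter ones, with a median length of 77 bases against 133 for those with ACA (table with Th9).

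Snord89 is named as a called member and U8 as a structural RNA. Snord89, a C/D box gene in an intron of Gm15832, read 386, 123 and 102 in Th0 and 56, 92 and 49 in Th9, with no overlap (log2 fold change -1.41, SE 0.40, adjusted p = 0.022). Leaving out Th9 replicate 1 or 3 ended this call, at adjusted p of up to 0.10, and without Th0 replicate 1 the change was -0.82. Snord118, the U8 RNA of ribosomal RNA processing, read 283, 121 and 154 in Th0, 155, 197 and 108 in Th9, and 166, 187 and 210 in Th17, with overlap in both tables.

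Of the scaRNAs, 4 of 14 fell with Th9 and none rose, both with all libraries and without Th0 replicate 1. Of all genes, 11.9% fell and 13.4% rose with all libraries, and 19% and 17.8% without Th0 replicate 1. Scarna13 read 4775, 2686 and 2716 in Th0 and 1380, 1691 and 1673 in Th9. Every Th9 library lay below every Th0 library, a 2.07-fold fall (log2 -1.05, SE 0.18, adjusted p = 0.0013) that was -0.78 (adjusted p = 5.50e-07) without Th0 replicate 1. The table with Th17 gave 4911, 2744 and 2787 in Th0 and 2719, 2253 and 1979 in Th17, all of these below the lowest Th0 library (log2 fold change -0.54, SE 0.20, adjusted p = 0.18).

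Gm23119, an scaRNA gene with no other name in the tables, read 632, 354 and 458 in Th0 and 184, 211 and 216 in Th9, with no overlap. The fall was 1.20 on the log2 scale, a change of -1.20 (SE 0.17, adjusted p = 3.31e-04), and -0.98 without Th0 replicate 1. In Th17 it read 317, 277 and 272 against 650, 362 and 470, again with no overlap (log2 fold change -0.74, adjusted p = 0.067, and 0.0066 without Th0 replicate 1). The calls of Scarna13 and Gm23119 with Th9 held when any 1 library was left out. Gm25492, in an intron of Wbscr22, fell from 64, 37 and 58 to 23, 30 and 32 with Th9 (log2 fold change -0.86, SE 0.26, adjusted p = 0.028). That call was lost, at adjusted p of up to 0.12, without any 1 of the Th9 libraries or without Th0 replicate 3. Scarna17 fell from 267, 127 and 127 to 106, 93 and 86 with Th9, and was not called without any 1 of the Th9 libraries (adjusted p up to 0.13).

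The other abundant scaRNAs did not pass. Gm22009, in an intron of the importin gene Kpna4, read 1543, 733 and 698 in Th0 and 803, 898 and 710 in Th9. Scarna2 read 1406, 558 and 618 in Th0 and 657, 686 and 498 in Th9. In both, the Th9 libraries overlapped Th0 replicates 2 and 3. With Th17, none of 14 scaRNAs passed with all libraries, at a median log2 fold change of -0.25. Without Th0 replicate 1, 1 rose and 1 fell, against 6.71% and 9.52% of all genes.

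Most snRNA members are copies of spliceosomal RNAs. By alignment to named mouse RNAs, with at least 50% of the reference identical, 11 of 28 resembled U6, 5 resembled U2, 3 resembled U1, 3 resembled U5 and 1 was Rnu12. Gm22513, the U1 copy shown above, read 2214, 1208 and 1279 in Th0 and 1121, 1142 and 967 in Th9, all below the lowest Th0 library (log2 fold change -0.49, SE 0.18, adjusted p = 0.067). In the other table it read 2277, 1234 and 1313 against 970, 1083 and 1092 in Th17, with no overlap (log2 fold change -0.56, SE 0.19, adjusted p = 0.15). Without Th0 replicate 1 both passed, at -0.21 (adjusted p = 0.042) and -0.28 (adjusted p = 0.011).

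The U2 copies Gm22973, Gm25360 and Gm25939 overlapped between groups in both tables. Gm22973 read 881, 306 and 354 in Th0, 267, 341 and 221 in Th9, and 440, 339 and 372 in Th17, so that only Th0 replicate 1 stood apart. Rnu12, the U12 RNA of the minor spliceosome, fell with Th9 from 149, 49 and 66 to 31, 44 and 32 (log2 fold change -1.13, SE 0.34, adjusted p = 0.027, and -0.68 without Th0 replicate 1). It was not called without Th9 replicate 1 or 3 (adjusted p up to 0.099). With Th17 it read 54, 43 and 49 and overlapped Th0. Gm22005 rose with Th9 from 8, 6 and 5 to 13, 15 and 22 (log2 fold change 1.26, SE 0.39, adjusted p = 0.032). Its Th0 mean of 6.33 was under 10, so it met the rule through the Th9 libraries (mean 16.7). Only the fit without Th0 replicate 1 kept that call among those that left out 1 library, and the other adjusted p values reached 0.14.

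Of the misc_RNAs, Rny3 had the highest level and rose with Th17. It read 3360, 1966 and 1175 in Th0 and 4973, 4398 and 5148 in Th17, every one above the highest Th0 library, at 1.29 on the log2 scale (SE 0.28, adjusted p = 0.0496). The call was kept only without Th0 replicate 1 (1.67, adjusted p = 1.50e-05) and was lost when any other 1 library was left out, at adjusted p of up to 0.24. Of all 14342 genes, 170 were called higher with all libraries. Without Th0 replicate 2 or 3 these were 247 and 55, and without Th17 replicate 1, 2 or 3 they were 11, 38 and 14. With Th9 Rny3 read 3267, 1924 and 1145 in Th0 and 4277, 4382 and 2258, where Th9 replicate 3 lay inside the Th0 range (log2 fold change 0.85, SE 0.32, adjusted p = 0.067, and 1.23, adjusted p = 1.80e-04, without Th0 replicate 1). Rny1 read 1632, 956 and 798 in Th0 and 1434, 1722 and 726 in Th9 (log2 fold change 0.18, adjusted p = 0.70, and 0.48, adjusted p = 0.096, without Th0 replicate 1). Its Th17 values were 2025, 1350 and 1616 against 1679, 977 and 819 (log2 fold change 0.57, adjusted p = 0.22), and without Th0 replicate 1 it was called at 0.87 (adjusted p = 4.35e-04).

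The genes resembling 7SK changed in both directions. Of 13 in the table with Th9, 1 rose and 2 fell with all libraries, and of 12 in the table with Th17 again 1 rose and 2 fell. Of all genes, 13.4% rose and 11.9% fell with Th9, and 1.19% and 0.39% with Th17. Without Th0 replicate 1, 1 of the genes resembling 7SK rose and 3 fell in each table. Of all genes, 17.8% and 19% then did so with Th9, and 6.71% and 9.52% with Th17. Gm26035 read 69, 122 and 145 in Th0, 16, 23 and 45 in Th9, and 71, 124 and 149 in Th0 against 30, 25 and 20 in Th17, with no overlap in either table. It fell by 2.02 with Th9 (SE 0.35, adjusted p = 0.0013) and by 2.11 with Th17 (SE 0.27, adjusted p = 0.0057) on the log2 scale. Unlike most members it was lowest, not highest, in Th0 replicate 1.

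Gm23624 read 54, 73 and 75 in Th0 and 12, 14 and 27 in Th9, and 56, 75 and 77 in Th0 against 15, 18 and 15 in Th17. It fell by 1.94 (SE 0.30, adjusted p = 5.85e-04) and by 2.04 (SE 0.22, adjusted p = 0.0029) on the log2 scale, again lowest in Th0 replicate 1 and with no overlap. Its calls held when any 1 library was left out, as did that of Gm26035 with Th9, whereas without Th17 replicate 3 Gm26035 had an adjusted p of 0.059. Gm22025, chosen after its values were seen, read 17, 14 and 20 in Th0 and 8, 1 and 9 in Th9, and 9, 1 and 2 in Th17, at adjusted p of 0.052 and 0.084 (0.037 and 0.025 without Th0 replicate 1).

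The shares of Rn7sk identical in Gm26035 and Gm23624 were 67.4% and 66.5%. Rn7sk itself was not analysed here.

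**Figure D4:**
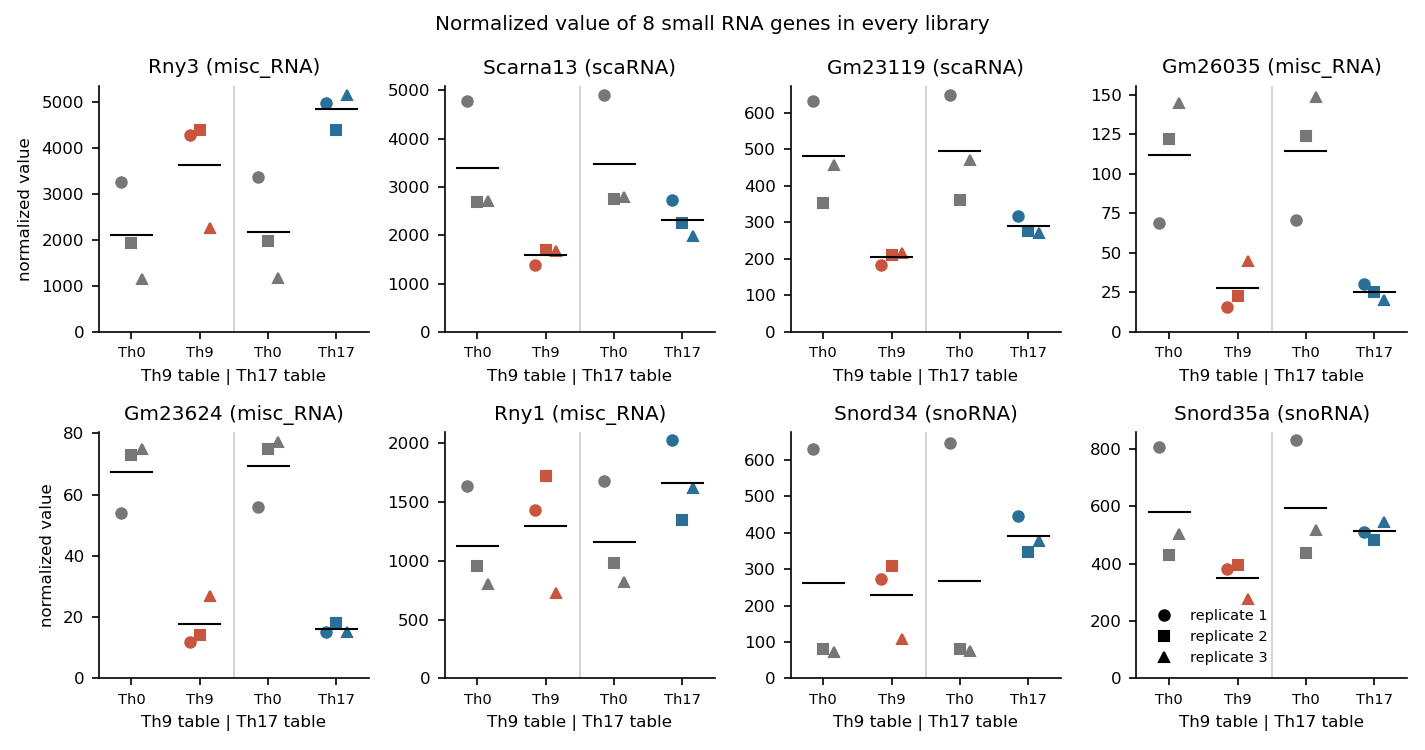
Normalized value (y axis, from 0) of 8 small RNA genes in every library, with Th0 and Th9 of one table left of the grey line and Th0 and Th17 of the other right of it; symbols mark replicates and bars the group means. Gm26035 and Gm23624 are low in every Th9 and Th17 library, Scarna13 and Gm23119 are low in Th9, and Snord34 shows Th0 replicate 1 above all others.

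Of the remaining structured RNAs, Gm27782, inside an intron of the long non-coding RNA Pvt1, rose with Th9 from 154, 119 and 191 to 253, 195 and 229 (log2 fold change 0.56, SE 0.17, adjusted p = 0.028). The lowest Th9 library lay just above the highest Th0 library, and leaving out Th9 replicate 1, Th9 replicate 3 or Th0 replicate 2 ended the call (adjusted p up to 0.13). With Th17 it read 237, 251 and 222 against 158, 122 and 196 (log2 fold change 0.60, adjusted p = 0.088). The vault RNA Vaultrc5 read 90, 63 and 68 in Th0, 106, 137 and 74 in Th9 and 115, 93 and 95 in Th17 (adjusted p = 0.13 and 0.22, and 0.022 and 0.021 without Th0 replicate 1). Terc, the telomerase RNA, read 71, 50 and 75 in Th0, 63, 58 and 65 in Th9 and 54, 41 and 56 in Th17, with overlap in both tables. Gm24514, which resembles 7SL, read 89, 89 and 97 in Th0 and 113, 82 and 74 in Th17.

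The median host gene did not share the excess of Th0 replicate 1, although some hosts, among them Airn, Pvt1 and Snhg6, were higher in it. In the table with Th9, 131 of 181 members lay inside 97 host genes on the same strand, 109 in introns and 22 overlapping an annotated exon, and 14 hosts were ribosomal protein genes. The median member of these stood 1.45 higher in Th0 replicate 1 than in the other Th0 libraries on the log2 scale and the median host stood at -0.10, and in 123 of 131 pairs the member exceeded its host. Single hosts ranged from -0.73 (Zbed3) to 1.06 (Gm15832, at 25, 12 and 11 in Th0). Of the 97 hosts, 15 rose and 11 fell with Th9, against 13.4% and 11.9% of all genes. Without Th0 replicate 1, 23 rose and 16 fell, against 17.8% and 19% of all genes. Across the pairs the fold changes of member and host had a Pearson r of 0.28 with all libraries and 0.31 without Th0 replicate 1 (0.18 and 0.17 over 139 pairs with Th17), as a description of pairs that share libraries and hosts.

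Taf1d, which encodes a subunit of an RNA polymerase I factor, held 8 of these members, all overlapping an exon of some transcript. It fell with Th9 from 3888, 3764 and 3592 to 2901, 3011 and 3363 (log2 fold change -0.28, SE 0.09, adjusted p = 0.034). Its members ranged from -0.63 (Gm22620) to 0.53 (Gm24299) and none passed with all libraries. Gm24357, chosen after its values were seen, read 289, 314 and 362 in Th0, 217, 252 and 282 in Th9, and 258, 246 and 263 in Th17. It had no excess in Th0 replicate 1, and without that library its log2 fold changes of -0.44 and -0.43 passed (adjusted p = 0.0071 and 0.0064).

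Odc1, which encodes ornithine decarboxylase of polyamine synthesis, was the host with the largest change with Th9 among the 97. It rose from 1750, 2011 and 1948 to 5250, 5601 and 5435 (log2 fold change 1.51, SE 0.09, adjusted p = 3.55e-07), and with Th17 it read 1900, 1790 and 1997 against 1799, 2054 and 1999. Its intronic H/ACA snoRNA Gm22748, chosen after its values were seen, read 92, 18 and 20 in Th0 and 83, 80 and 66 in Th9, and 57, 33 and 41 in Th17. The log2 fold change with Th9 was 1.21 (SE 0.46, adjusted p = 0.076), and 1.95 (adjusted p = 1.61e-06) without Th0 replicate 1. With Th17 it was 0.32 (adjusted p = 0.79), and 1.06 without that library. Whether Th9 and Th17 differ in this gene was not tested, since the tables were normalized separately.

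**Figure D5:**
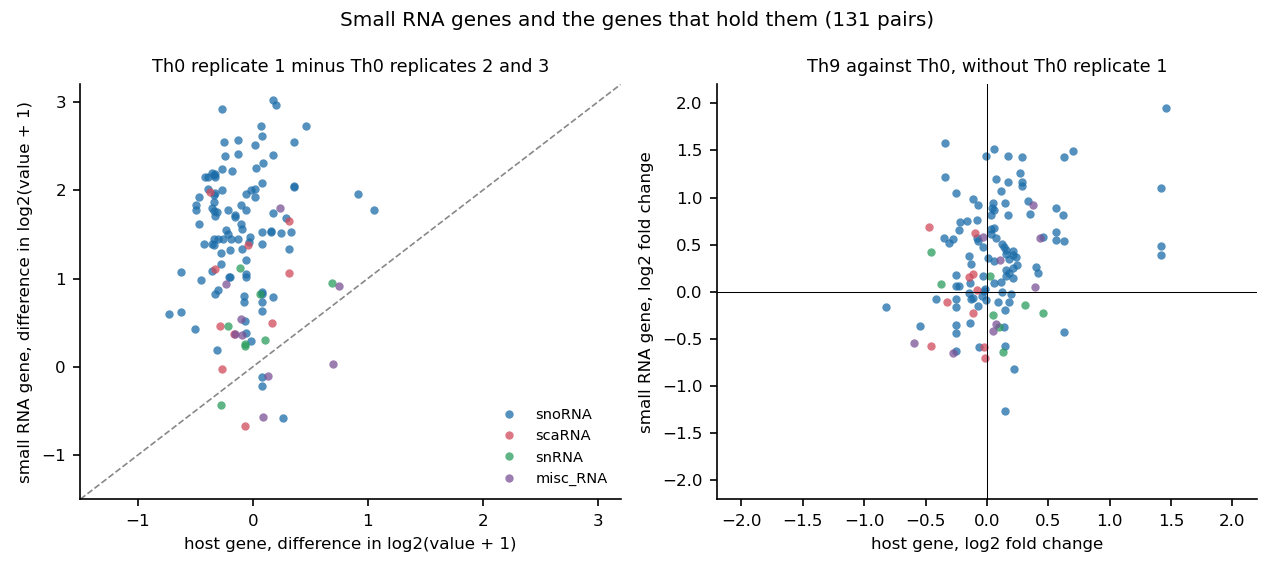
Each point is a small RNA gene and the gene that holds it, for 131 pairs of the table with Th9. Left, the difference in log2(value + 1) of Th0 replicate 1 from the other Th0 libraries in the host (x axis) and the small RNA gene (y axis), with equality dashed; right, their log2 fold changes with Th9 without Th0 replicate 1. Small RNA genes lie above their hosts in 123 of the pairs on the left, and the point at the upper right of the right panel is Gm22748 with Odc1.

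Genes of proteins that build, modify or bind these RNAs, and small nucleolar RNA host genes, were read from 15 lists. Of these, 179 genes were tested, 15 of them from the list of host genes. With Th9, 12 rose and 21 fell (of all genes 13.4% and 11.9%), and with Th17, 1 rose and 2 fell (of all genes 1.19% and 0.39%). With Th0 replicate 1 left out, 19 rose and 39 fell with Th9, against 17.8% and 19% of all genes. With Th17, 4 then rose and 32 fell (9 of the 19 snRNP proteins among the latter), against 6.71% and 9.52% of all genes. The 33 and 3 calls made with all libraries were all kept. The counts in the lists that follow are from all libraries. Of the 7 genes of the 7SK particle and P-TEFb, Hexim1, which inhibits P-TEFb on 7SK, and Larp7, which binds 7SK, fell with Th9 (log2 fold changes -0.86 and -0.78, adjusted p = 2.845e-05 and 2.33e-04), at a list median of -0.17. Of 17 Sm and LSm proteins, the rings around snRNAs, 1 rose and 4 fell, among them Lsm6 (-0.90), Lsm5 (-0.63) and Snrpd3 (-0.43). Of 19 snRNP proteins 4 fell and none rose, among them Sart3, Snrnp70 and Prpf31.

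Of the box C/D core proteins, Nop58 fell by 0.30 and no other of 4 passed, and of the H/ACA core proteins Nop10 rose by 0.69 on the log2 scale with Th9. Of 17 assembly and transport factors 3 rose and 3 fell. Znhit6, a C/D assembly factor, read 1563 ± 187 in Th0 and 827 ± 39.6 in Th9 (SD, n = 3; log2 fold change -0.91, limma adjusted p = 3.67e-05). Naf1, an H/ACA assembly factor, rose by 0.49, and Nufip1 by 0.41. The Y RNA partners went in opposite directions with Th9: Trove2, which encodes Ro60, rose by 0.53 (adjusted p = 0.019) and Ssb, which encodes La, fell by 0.34 (adjusted p = 0.023).

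Among the other lists with Th9, Ints10 and Ints5 rose and Ints6 fell (14 Integrator genes). In the 21 genes of RNA polymerase III and its factors, Maf1 rose and Gtf3c6 and Brf1 fell. Snapc5 fell (7 genes of the snRNA activating complex), as did Srp9 (8 of the signal recognition particle), while Prmt5 rose (11 of the SMN complex) and Exosc1 rose (19 of the exosome and 3′ processing). Of 15 listed small nucleolar RNA host genes, Zfas1 rose and Snhg20 fell, and none of 10 RNase P and RNase MRP proteins passed. With Th17, Ints5 rose by 0.58, and Polr3d, a subunit of RNA polymerase III, and Snhg20 fell by 0.37 and 0.92 on the log2 scale.

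At the limit of the rule, Gm28008 (mean 10) was the last member inside and Gm25259 (mean 9.83) the first outside in the table with Th9. Gm28008 read 25, 7 and 6 in Th0 and 5, 5 and 12 in Th9, and Gm25259 read 30, 6 and 9, and 6, 6 and 2. In the table with Th17 they were Snora69 (mean 10; 27, 3 and 2 in Th0 and 9, 12 and 7 in Th17) and Gm22596 (mean 9.83; 15, 7 and 9, and 11, 11 and 6). All 4 had their highest value in Th0 replicate 1.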

How the data were processed

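Per the labels' protocols, 9 libraries of column-purified total RNA were made with a stranded SMARTer kit. The submitters' processing notes name featureCounts 1.4.5-p1 (Subread), STAR 2.4.0a, DESeq2 1.62, mm10 and GRCm38 without giving them a role. The authors deposited 2 tables of scores, which are normalized read counts rounded to whole numbers, scaled separately for each table. Strand use in counting and treatment of reads with several matches are not given in the sources used here, and reads per library were not rebuilt from the rounded values. Library totals of the deposited scores were 13135611 to 15923877.

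Genes with a mean of at least 10 were fitted with limma-trend (limma 3.58.1, R 4.3.3) on log2(value + 1), group as the only term, within each table, in place of a count model since the values are not counts. A fold change on this scale understates changes of low genes. Class sums were compared by exact permutation. Alternatives were another pseudocount (5), no filter, a mean of 50, 2 rescalings to equal totals, TMM rescaling, array weights, a replicate block and leaving out each library.

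Named genes were the 4 highest of each class, up to 8 called per direction, named structural RNAs, their hosts, and up to 3 called genes per protein list. Snord34, Snord32a, Snord87, Snord104, Snora21, Gm22748, Gm22025, Gm24357 and the other genes said to be so were chosen after their values were seen. Members and lists were chosen with earlier results of these data known. Values of 1 called misc_RNA are not reported here.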

Additional observations from a re-analysis of the deposited data

How the results depend on the processing

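Calls of members depended on Th0 replicate 1. With Th9, the 3 higher and 11 lower calls ranged from 0 to 39 and from 5 to 15 when 1 library was left out, and the 2 higher and 2 lower calls with Th17 from 0 to 62 and from 1 to 6. Among these, the highest higher counts, 39 and 62, came from leaving out Th0 replicate 1. Calls over all genes moved as well in the fits that left out 1 library. With Th9 these called 1042 to 2573 higher and 847 to 2747 lower of 14475 genes. With Th17 they called 11 to 963 higher and 2 to 1365 lower of 14342, against 170 and 56 with all libraries. Array weights, which weigh libraries by their fit, gave 43 higher and 19 lower with Th9 and 71 and 13 with Th17. Of all 14475 genes tested with Th9, array weights called 3302 higher and 3326 lower, and of 14342 with Th17, 1572 and 1789. In fits that left out 1 library, 4 of the 14 calls with Th9 (Gm23624, Gm26035, Scarna13 and Gm23119) and 1 of the 4 with Th17 (Gm23624) always held.

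A mean of at least 50, with 77 members per table, left 1 higher and 9 lower calls with Th9 and 1 higher and 1 lower with Th17. Of all genes, it called 1665 higher and 1563 lower of 10635 with Th9, and 206 and 66 of 10637 with Th17. Equal totals gave 5 higher and 10 lower calls with Th9 and moved the median of all genes to 0.10. Of all genes, they called 2245 higher and 795 lower of 14475, with 73.9% of all calls higher against 53.0%. Equal totals without mt-Rnr1, mt-Rnr2 and Gm26917 gave 3 higher and 7 lower calls with Th9. Of all genes, 2479 were then called higher and 1516 lower, with 62.0% of all calls higher. The cause of these shifts was not tested. A replicate block gave 7 higher and 25 lower calls with Th9 and 4 and 5 with Th17. Of all genes, it called 2114 higher and 1962 lower of 14475 with Th9, and 186 and 76 of 14342 with Th17. The replicate numbers are not shown to pair libraries, since same-numbered libraries had correlations of 0.111, -0.011 and 0.145 (Th9) and -0.0547, -0.0795 and 0.039 (Th17).

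The snoRNA sum changed direction. Leaving out 1 library gave log2 differences of -0.43 to 0.37 with Th9, above 0 without Th0 replicate 1 (0.37) or Th9 replicate 3 (0.05), and of -0.0511 to 0.74 with Th17, below 0 without Th0 replicate 2 (-0.0097) or 3 (-0.0511). The other class sums kept their direction in all alternatives run. Precision is limited by 3 libraries a group and, for members of at most 80 bases, by their spread between libraries.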

Other observations

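Hosts and their snoRNAs could differ in direction within a locus. Nop58, the C/D core protein, fell with Th9 from 4158, 4442 and 4658 to 3442, 3738 and 3580, while its intronic snoRNAs Snord11 and Snord70 had log2 fold changes of 0.77 and 0.37, and 1.58 and 1.22 without Th0 replicate 1. The non-coding host 2410006H16Rik rose with Th9 from 448, 368 and 333 to 1090, 1114 and 675 (log2 fold change 1.30, SE 0.17, limma adjusted p = 2.03e-04). Its 3 snoRNAs overlapped between groups with all libraries: Snord49a read 560, 148 and 122 in Th0 and 214, 219 and 116 in Th9, Snord49b read 655, 167 and 151, and 282, 295 and 134, and Snord65 read 113, 18 and 19, and 44, 57 and 27. None of the 3 passed with all libraries, and without Th0 replicate 1 Snord65 did (log2 fold change 1.10, adjusted p = 0.0072). Without that library Snord49b and Snord49a had log2 fold changes of 0.49 and 0.39, in the direction of the host (1.42). A difference between host and snoRNA was not tested. With Th17 the host rose by 0.72 on the log2 scale (adjusted p = 0.018), and Snord65, Snord49b and Snord49a had log2 fold changes of 1.00, 0.48 and 0.34.

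Gm23833, in an intron of Airn, a long non-coding RNA, fell with Th9 as its host did. It read 124, 69 and 62 in Th0 and 53, 34 and 49 in Th9 (log2 fold change -0.85, adjusted p = 0.035), and was not called without Th0 replicate 1 (-0.54, adjusted p = 0.062). The call was also lost without any 1 of the Th9 libraries, at adjusted p of up to 0.15, and held in 2 of 6 fits that left out 1 library. Airn fell from 1604, 875 and 1042 to 644, 574 and 681 (log2 fold change -0.85, SE 0.17, adjusted p = 0.0037). With Th17, Gm23833 read 77, 98 and 87 and overlapped Th0. Gm27326 fell with Th9 from 61, 57 and 43 to 30, 32 and 37, a call that held in 1 of 6 fits that left out 1 library. The genes in these paragraphs, other than called members, were chosen after their values were seen.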
